A study of Mus musculus with 4 samples.

Results

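Cycling mesenchymal cells of the fracture callus are matrix-producing cells caught while they copy their DNA or divide. They were chosen by raw counts of unique molecular identifiers (UMIs), each of which stands for 1 captured mRNA molecule. A cell had at least 20 UMIs of *Col1a1* (type I collagen), at least 2 of *Prrx1* (a limb mesenchyme transcription factor), at least 2 of *Mki67* (the Ki-67 antigen of dividing cells) and at least 2 of *Top2a* (a DNA topoisomerase of dividing cells). It also had no UMI of *Ptprc* (the haematopoietic marker CD45) and at most 1 of *Pecam1* (the endothelial marker CD31). Of 25479 kept cells, which had 4000 to 50000 UMIs, 2000 to 7000 genes and at most 8% mitochondrial UMIs, 204 met these limits (0.801%). The same limits without those on *Mki67* and *Top2a* held for 7265 cells, called gate cells. The comparison cells were the 7097 cells with at least 20 UMIs of *Col1a1* and 2 of *Prrx1* and no UMI of *Mki67* or *Top2a*. No limit on *Ptprc* or *Pecam1* was set on them, and 17.9% carried a *Ptprc* UMI or more than 1 *Pecam1* UMI.

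The libraries came from wild-type C57BL/6J mice aged 3 months with a fractured right tibia, which received K/BxN serum, a transfer model of inflammatory arthritis (RA), or vehicle (control). Callus was scraped from the bone at 4 or 7 days post-fracture (dpf) and digested, and the cells of several mice were pooled into 1 library per condition (control_4d, control_7d, RA_4d and RA_7d). There was thus no replicate of a condition, RA was not tested against control, and the effect of a condition cannot be told apart from that of its library. Exact 95% intervals are given, which hold counting error only.

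A dividing cell passes through S phase, in which replication enzymes and histones are made, and then through G2 and M phase, in which cyclins, mitotic kinases and spindle proteins accumulate. Transcription of the first set is driven by E2F factors, and that of the second by the MuvB complex with MYBL2 and FOXM1, through promoter elements called CHR and through CCAAT boxes bound by NF-Y. In a healing fracture, skeletal progenitors expand before they become chondrocytes and osteoblasts of the callus.

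Control_4d held 37 cycling cells, control_7d 82, RA_4d 37 and RA_7d 48, and runs of 4 values follow this order unless libraries are named. Their median depth was 39065, 33202, 36559 and 34282 UMIs, above that of the comparison cells in each library, and their UMIs summed to 1398141, 2655533, 1254535 and 1585333. No cell among the 204 was called a doublet by Scrublet run on the kept cells, against 288 of the comparison cells. Libraries shared 66 barcodes of kept cells, of which none was a cycling cell. In all 1187 kept cells had at least 2 UMIs of both *Mki67* and *Top2a*, of which 651 carried *Ptprc* and 347 more than 1 UMI of *Pecam1*. These counts hold under the upper limits on a cell, which removed many cycling mesenchymal cells.

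The genes that chose the cells are given as a description. In CPM, the usual scaling of counts to the summed UMIs, *Mki67* (chr7:135689784-135716361, GRCm38) stood at 262, 274, 238 and 336 in the cycling cells, and *Top2a* (chr11:98992943-99024189) at 340.4, 454, 290.1 and 561. Both were absent from the comparison cells by construction. *Prrx1* (chr1:163245119-163313710) was at 526, 422, 673 and 637 CPM in the cycling and 553, 506, 666 and 653 CPM in the comparison cells. *Cenpf* (chr1:189640606-189688086), a kinetochore protein of G2 and M phase that the rule did not use, stood at 219, 221, 119 and 259 CPM in the cycling cells and at 0.796 to 1.85 CPM in the comparison cells. Since these genes were used by the rule or are made in the same phase, they are no independent check of the label.

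Values on both sides of the limit were compared through a list of 65 G2 and M phase genes. Just inside it, cells with exactly 2 UMIs of *Mki67* or *Top2a* numbered 8, 19, 14 and 6, and the list made up a median of 0.440%, 0.285%, 0.423% and 0.360% of their UMIs. Just outside it, cells with UMIs of both genes but only 1 of either numbered 23, 76, 26 and 39, with medians of 0.185%, 0.195%, 0.280% and 0.172%. In the comparison cells the medians were 0.0462%, 0.0564%, 0.0473% and 0.0483%. The list does not hold *Mki67* or *Top2a*, but its genes are made in the same phase, so that these values are a description.

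At 7 dpf a smaller part of the gate cells was cycling in RA than in control, and at 4 dpf the libraries did not differ beyond counting error. Cycling cells made up 4.74% (3.36 to 6.48) of the gate cells in control_4d, 6.12% (4.34 to 8.33) in RA_4d, 3.24% (2.58 to 4.00) in control_7d and 1.43% (1.06 to 1.90) in RA_7d. Relative to control, the RA share was 1.29 (0.795 to 2.09) times as high at 4 dpf and 0.443 (0.304 to 0.641) times at 7 dpf. The ratio of 7 to 4 dpf was 0.682 (0.457 to 1.03) in control and 0.235 (0.150 to 0.370) in RA. As a share of all kept cells, cycling cells made up 0.676%, 1.07%, 0.900% and 0.584%. With this denominator the ratio of 7 to 4 dpf was 1.58 (1.06 to 2.40) in control and 0.648 (0.414 to 1.02) in RA, so that the direction in control depended on the denominator. With the upper limits lifted it was 0.371 (0.304 to 0.452) and 0.163 (0.126 to 0.211) of the gate cells. How many cells a callus held is not known from such shares.

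The study's upper limits on a cell (50000 UMIs and 7000 genes) removed most cycling mesenchymal cells. Without these limits there were 669 cycling cells, so that 465 had been removed, of which 3 were called doublets in a Scrublet run on the wider set of cells. In that run 1 kept cycling cell of control_7d and 1 of RA_7d were also called. The removed part was 82.9%, 57.7%, 76.3% and 53.4% of the cycling cells, against 16.8%, 6.71%, 17.6% and 4.79% of the comparison cells, and was larger at 4 than at 7 dpf for both kinds of cell. With the upper limits lifted, an alternative chosen after seeing the data, the share of gate cells was 18.7% (16.5 to 21.1) in control_4d, 18.0% (15.5 to 20.7) in RA_4d, 6.93% (6.02 to 7.94) in control_7d and 2.93% (2.40 to 3.54) in RA_7d. Divided by control, the RA share was then 0.961 (0.777 to 1.19) at 4 dpf and 0.423 (0.330 to 0.540) at 7 dpf. The share was thus lowest in RA_7d with and without the limits.

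**Figure D1:**
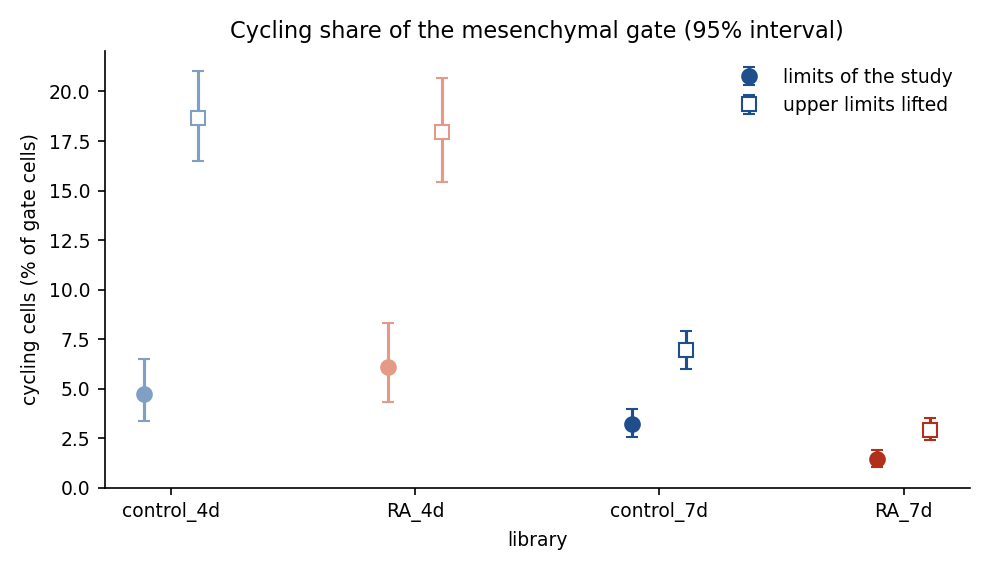
Cycling cells as a percent of the gate cells (y axis) in each library (x axis), with the limits of the study (filled circles) and with the upper limits lifted (open squares), and exact 95% binomial intervals as bars. RA_7d has the lowest share under both settings (1.43% and 2.93%), and the 4 dpf libraries reach 18.7% and 18.0% once the upper limits are lifted.

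To compare the expression of cycling and comparison cells, UMIs were summed per library and kind of cell and tested with edgeR's quasi-likelihood test, with the library as a block and an adjusted p (Benjamini-Hochberg) under 0.05 as the threshold. Of 13999 genes tested, 2419 were higher (17.3%) and 2030 lower (14.5%) in the cycling cells, and 5875 had an unadjusted p under 0.05. These counts hold genes that the rule used. Without *Mki67*, *Top2a* and the cell cycle lists below, 2273 were higher and 2029 lower. These counts are not free of the rule either. The lower genes still hold *Col1a1*, *Ptprc* and *Pecam1*, and the higher genes hold others of division, such as *Pbk*. The 4 libraries served as replicates of the difference between the cells, across treatments and times. Folds are given as log2 fold ± SE from this fit (n = 4 libraries), and the median over all genes was -0.00124.

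Genes of the cell cycle were not independent of the rule and are given with no test. All 42 genes of a list of S phase genes were higher in the cycling cells in 4 of 4 libraries (median log2 fold 2.85). *Tk1*, thymidine kinase, stood at 112, 83.2, 55.8 and 85.8 CPM against 1.19 to 2.68 CPM in the comparison cells. *Rrm2*, a subunit of ribonucleotide reductase, stood at 84.4, 87.4, 71.7 and 129 CPM against 4.38 to 5.58, and *Mcm5*, a subunit of the replicative helicase, at 59.4, 53.5, 41.5 and 81.4 CPM against 2.58 to 5.37. All 3 were lowest in RA_4d among the cycling cells. Of 65 genes of G2 and M phase, 64 were higher in 4 of 4 libraries (median log2 fold 5.23). *Hmmr*, a spindle assembly factor, stood at 154, 137, 129.9 and 167 CPM against 0.410 to 1.21, *Ccna2* (cyclin A2) at 117, 102, 68.6 and 124 CPM against 0.433 to 0.775, and *Cdk1*, the main mitotic kinase, at 179, 241, 143 and 228 CPM against 6.51 to 10.3. All 27 genes of a list of histones, other chromatin genes and tubulins were higher in 4 of 4 libraries, with log2 folds of 5.98 for the linker histone gene *Hist1h1b* and 3.71 for *Stmn1*, a regulator of microtubules. Of 15 cell cycle transcription factors, 13 were higher in 4 of 4 libraries, and *Myc* went the other way, with 42.2, 40.7, 68.6 and 27.1 CPM in the cycling and 83.2, 49.9, 113 and 79.7 CPM in the comparison cells.

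The promoters of these genes share letters that the rule did not use. RefSeq promoter windows (GRCm38.p6, 250 bases before to 50 after the start) were searched on both strands for CCAAT, for the CHR letters TTTGAA or TTCGAA, and for the E2F letters TTTGGCGC or TTTCGCGC. Of 60 windows of 55 genes of the G2 and M phase list, 78.3% held CCAAT, 75% a CHR match and 65.0% both, against 37.4%, 19.2% and 7.53% of all 32851 windows. Of 31 windows of 29 S phase genes, 64.5% held CCAAT and 12.9% a CHR match. E2F letters were in 25.8% of the S phase windows, 5% of the G2 and M phase windows and 0.813% of all windows. A match is a description of the letters and not a bound site. A pair of mitotic genes and a replication gene are shown because their windows carry these patterns, 5′ to 3′ in the direction of the gene, with the matches on either strand in capitals. They are *Hmmr* (chr11:40733388-40733687, minus strand), *Cdk1* (chr10:69352863-69353162, minus strand) and *Mcm5* (chr8:75109259-75109558, plus strand).
Hmmr: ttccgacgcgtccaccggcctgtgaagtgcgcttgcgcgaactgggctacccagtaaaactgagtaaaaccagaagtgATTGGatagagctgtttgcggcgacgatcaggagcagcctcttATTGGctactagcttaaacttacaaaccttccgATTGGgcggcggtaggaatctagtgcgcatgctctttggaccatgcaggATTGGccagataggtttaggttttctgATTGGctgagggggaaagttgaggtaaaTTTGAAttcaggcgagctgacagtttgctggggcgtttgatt
Cdk1: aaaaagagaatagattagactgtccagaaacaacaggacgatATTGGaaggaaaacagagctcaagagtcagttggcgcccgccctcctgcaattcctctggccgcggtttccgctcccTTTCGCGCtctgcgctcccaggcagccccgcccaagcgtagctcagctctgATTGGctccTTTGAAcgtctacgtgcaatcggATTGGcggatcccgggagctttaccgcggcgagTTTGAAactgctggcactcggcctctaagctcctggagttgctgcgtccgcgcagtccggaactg
Mcm5: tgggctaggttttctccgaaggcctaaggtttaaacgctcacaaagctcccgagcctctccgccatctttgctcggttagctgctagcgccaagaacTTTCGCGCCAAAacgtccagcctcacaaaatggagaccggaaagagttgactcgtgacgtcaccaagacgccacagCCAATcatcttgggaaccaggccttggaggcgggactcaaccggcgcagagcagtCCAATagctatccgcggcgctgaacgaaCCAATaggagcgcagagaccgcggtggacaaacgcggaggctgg
The *Hmmr* window holds 5 CCAAT and 1 CHR match. The *Cdk1* window holds 3 CCAAT, 2 CHR and 1 E2F match, and the *Mcm5* window 3 CCAAT and 2 E2F matches, which overlap on opposite strands.

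The lists of 42 S phase and 65 mitotic genes hold neither *Mki67* nor *Top2a*, but both genes are made mainly in G2 and M phase, so that the balance of the lists follows in part from the rule and is a description. S phase genes made up 0.228%, 0.209%, 0.179% and 0.264% of the UMIs of the cycling cells, against 0.0378%, 0.0469%, 0.0385% and 0.0386% in the comparison cells. G2 and M phase genes made up 0.661%, 0.720%, 0.496% and 0.772%, against 0.0519%, 0.0605%, 0.0521% and 0.04998%. Cells with more S phase than mitotic UMIs numbered 7 of 37, 14 of 82, 7 of 37 and 12 of 48. RA divided by control at 4 dpf gave 0.784 (0.743 to 0.828) for the S phase and 0.750 (0.726 to 0.775) for the mitotic list. At 7 dpf these ratios were 1.26 (1.21 to 1.31) and 1.07 (1.05 to 1.10). By these sums both lists were lower in RA_4d than in control_4d and higher in RA_7d than in control_7d. The median over cells of the mitotic list was 0.434% in RA_4d and 0.665% in control_4d, but also lower in RA_7d (0.658%) than in control_7d (0.767%), so that at 7 dpf its direction depended on the summary. These medians at 7 dpf were, once the upper limits were lifted, 0.585% and 0.642%. With the upper limits lifted the ratios were 0.982 and 0.930 at 4 dpf and 1.13 and 1.11 at 7 dpf. The intervals count UMIs and leave out the spread between cells, in which the mitotic share ran from 0.0787% to 3.16%.

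**Figure D2:**
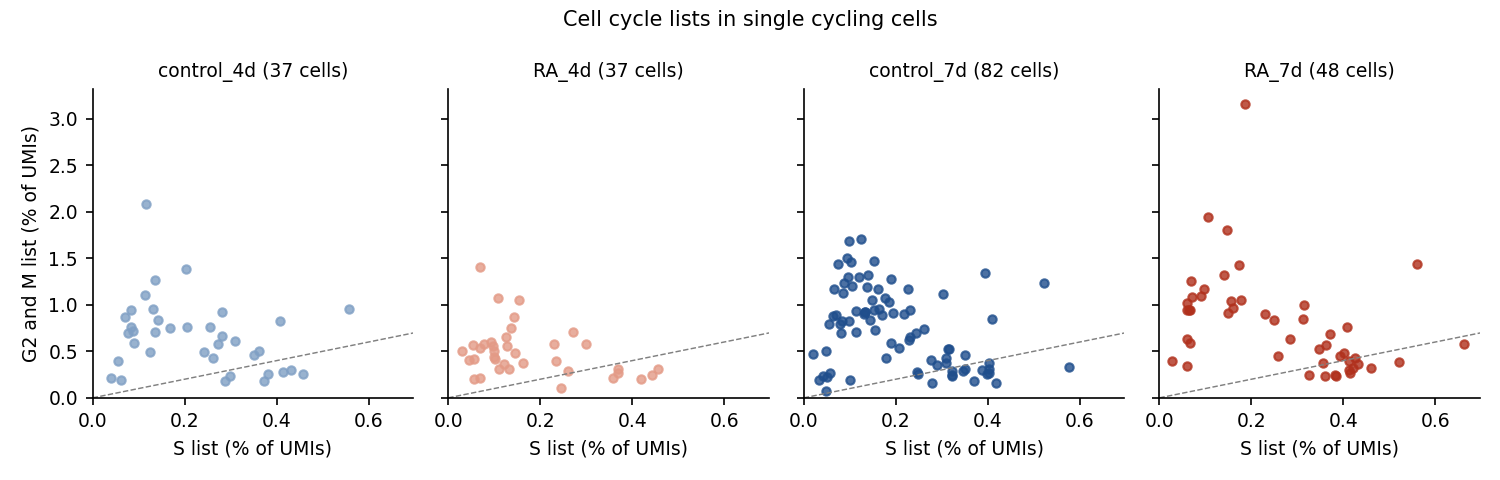
Each point is 1 cycling cell, with the S phase list (x axis) and the G2 and M phase list (y axis) as a percent of its UMIs, in 1 panel per library, and the dashed line marks equal shares. The highest mitotic share is 3.16% in 1 cell of RA_7d, and 7, 7, 14 and 12 cells lie below the line in control_4d, RA_4d, control_7d and RA_7d.

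Cycling cells were found more often among gate cells with *Acta2*, *Acan*, *Tnn* or *Tnc*, and less often among those with fibroblast markers. A gate cell counted as positive with at least 2 UMIs of a marker, and the cycling share among positive cells was divided by the cycling share of all gate cells of the library (mean ± SD, n = 4 libraries). The ratio was 2.01 ± 0.406 for *Acta2* (smooth muscle actin), 1.95 ± 0.734 for *Acan* (the cartilage proteoglycan aggrecan), 1.84 ± 0.615 for *Tnn* (tenascin N) and 1.49 ± 0.293 for *Tnc* (tenascin C), each above 1 in 4 of 4 libraries. It was 0.237 ± 0.157 for *Pi16* and 0.485 ± 0.226 for *Dpp4*, of fibroblast precursors, 0.255 ± 0.134 for *Abca8a* (a lipid transporter), 0.269 ± 0.117 for *Mmp3* (stromelysin) and 0.509 ± 0.252 for *Cxcl14* (a chemokine), each below 1 in 4 of 4 libraries. *Cd34* (0.662 ± 0.0645), *Ly6a* (Sca-1, 0.756 ± 0.0612) and *Aspn* (asporin, 0.932 ± 0.0394) were also below 1 in each library. *Postn*, *Sox9*, *Scx*, *Tnmd* and *Thy1* lay on both sides of 1, with means of 1.03, 1.15, 1.13, 0.926 and 1.09. *Sp7* and *Ibsp*, of the osteoblast lineage, had as few as 5 and 3 positive cells in a library and are not read. In an alternative each cell was thinned to 8000 UMIs, and cells with fewer were left out. The limits on *Mki67*, *Top2a* and the marker were then at least 1 UMI, so that depth and limits changed together. The ratio was then 2.00 ± 0.265 for *Acta2*, 1.79 ± 0.666 for *Acan*, 1.72 ± 0.370 for *Tnn* and 0.180 ± 0.153 for *Pi16*. For *Dpp4* and *Cd34* it was 0.671 ± 0.433 and 0.699 ± 0.209, and *Dpp4* was then above 1 in control_7d (1.25).

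In all, 188 of the 204 cycling cells (92.2%) had at least 2 UMIs of *Acta2*, *Acan* or *Tnn*, against 52.1% of the gate cells, a set of markers chosen after its values were seen. Among gate cells with none of the 3, the cycling share was 1.01%, 0.538%, 0.398% and 0.336%. At 4 dpf *Acta2* was found in 81.1% of the cycling cells of control_4d and 91.9% of RA_4d, and *Acan* in 21.6% and 13.5%. At 7 dpf *Acta2* was found in 68.3% of control_7d and 52.1% of RA_7d, and *Acan* in 51.2% and 41.7%. The *Acta2*+ part of the cycling cells was thus larger and the *Acan*+ part smaller at 4 dpf. Cells with *Pi16*, *Mmp3* or *Abca8a* were 63.5% of the gate cells in RA_7d and 29.9% in control_7d, but 10.4% and 8.54% of the cycling cells.

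Among cells with some skeletal, tendon and fibroblast markers the cycling share at 7 dpf was lower in RA. For others the libraries did not differ beyond counting error. RA_7d divided by control_7d gave 0.432 (0.292 to 0.632) among *Postn*+, 0.441 (0.295 to 0.652) among *Aspn*+ and 0.459 (0.280 to 0.736) among *Sox9*+ cells, and 0.433 (0.170 to 0.979) and 0.419 (0.178 to 0.916) among cells with the tendon markers *Scx* and *Tnmd*. The ratio was 0.379 (0.222 to 0.639) among *Ly6a*+, 0.430 (0.234 to 0.790) among *Cd34*+ and 0.188 (0.0321 to 0.784) among *Cxcl14*+ cells. These intervals lie below 1. *Postn*+ and *Aspn*+ cells were 94.5% and 91.4% of the gate cells in RA_7d and 98.0% and 95.1% in control_7d. Their ratios are thus close to that of all gate cells (0.443). For *Pi16*, *Dpp4*, *Abca8a* and *Mmp3* the ratios were 0.481, 0.260, 0.810 and 0.175, with intervals that reached across 1. Among *Acan*+ cells 4.32% were cycling in RA_7d and 4.72% in control_7d, a ratio of 0.914 (0.509 to 1.59). Among *Tnn*+ cells the ratio was 0.840 (0.513 to 1.34), among *Tnc*+ cells 0.715 (0.467 to 1.08) and among *Acta2*+ cells 0.721 (0.431 to 1.17), and these intervals reach across 1. Among cells without the marker it was 0.399 (0.237 to 0.664) for *Acan*, 0.452 (0.237 to 0.862) for *Tnn* and 0.471 (0.257 to 0.858) for *Acta2*, so that the share was lower in RA_7d there. *Acan*+ cells were 13.8% of the gate cells in RA_7d and 35.1% in control_7d, *Tnn*+ cells 20.4% and 50.2%, and *Acta2*+ cells 20.8% and 44.4%. Among cells with *Thy1*, a surface protein of progenitors and fibroblasts, the ratio was 0.259 (0.139 to 0.460), and among those without it 0.722 (0.432 to 1.201). The difference between positive and negative cells was not tested.

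**Figure D3:**
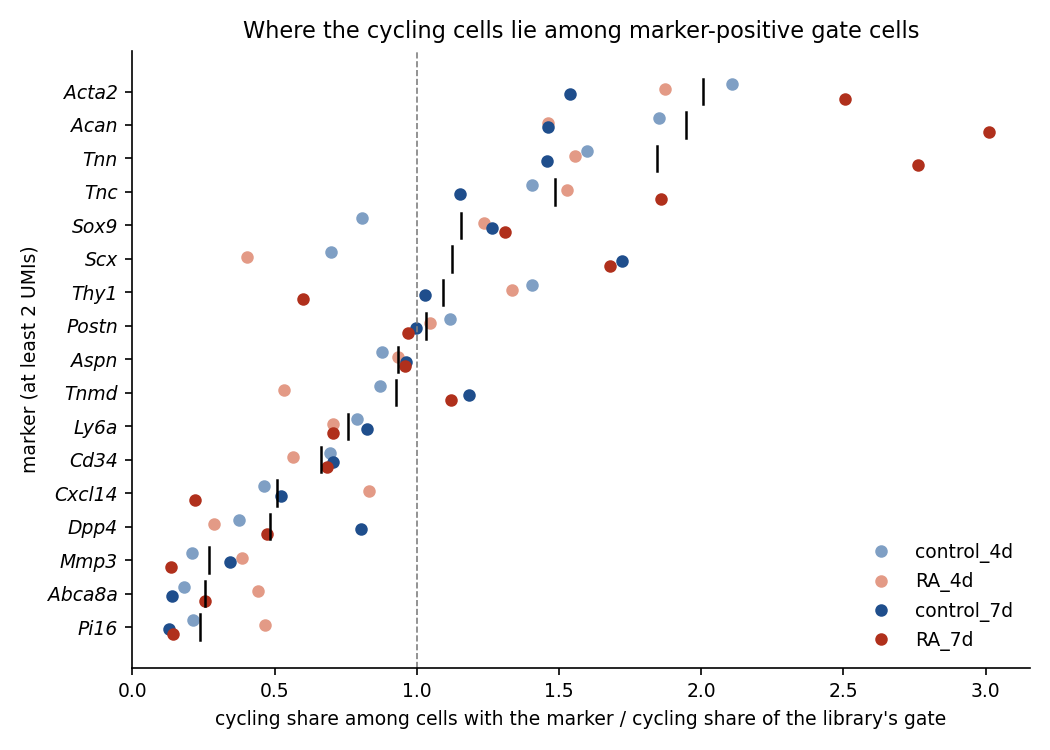
Cycling share among gate cells with at least 2 UMIs of a marker, divided by the cycling share of all gate cells of the library (x axis), for each marker (y axis), with points for the 4 libraries, black lines for their mean and a dashed line at 1. *Acta2*, *Acan*, *Tnn* and *Tnc* lie above 1 in 4 of 4 libraries, and *Pi16*, *Abca8a* and *Mmp3* have the lowest means (0.237 to 0.269).

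Markers of other cell types were measured beside these values. *Rgs5*, a marker of pericytes, reached 2 UMIs in 6 of 37, 2 of 82, 3 of 37 and 1 of 48 cycling cells, against 3.08%, 2.92%, 2.31% and 2.42% of the gate cells. The summed level of 10 mural genes, of which *Acta2* was the most abundant, was 3884, 1039, 1537 and 410.0 CPM in the cycling and 977, 817, 726 and 352 CPM in the comparison cells, so that the largest gap was in control_4d. Without *Rgs5*+ cells, an alternative chosen after seeing the data, the cycling share was 4.10%, 3.25%, 5.75% and 1.44%, and the ratio for *Acta2*+ cells was 2.12, 1.57, 1.90 and 2.66, above 1 in each library. A list of 18 haematopoietic genes, with *S100a9* as its most abundant, summed to 131, 149.5, 625 and 62.4 CPM in the cycling and 382, 602, 477 and 490.3 CPM in the comparison cells. In RA_4d 1 cell held 90.6% of the UMIs of *S100a8*, a neutrophil gene. Of 17 of these genes tested 13 were lower in the cycling cells (14.5% of all genes were), and 7 with doublets left out. The rule barred *Ptprc* UMIs in the cycling cells only, so that these counts follow in part from it. With the *Ptprc* and *Pecam1* limits also set on the comparison cells, 1 of 16 was lower. A list of 12 endothelial genes, with *Eng* as its most abundant, summed to 93.7, 61.8, 110 and 41.0 CPM against 114, 105, 98.9 and 152 CPM. Of these genes 2 of 10 tested fell, and 11 of 12 with the upper limits lifted. The rule limited *Pecam1* in the cycling cells only, so that these counts follow in part from it. With the *Ptprc* and *Pecam1* limits set on the comparison cells, 1 of 7 rose and 1 fell (median log2 fold 0.03, against -0.72). Without control_7d 1 of 10 fell, without control_4d or RA_4d 3 of 12, and with doublets left out 1 of 9. A list of 5 erythroid genes, with *Hbb-bs* as its most abundant, summed to 694, 664, 7.17 and 101 CPM against 739, 466, 49.5 and 426 CPM. None of 4 tested fell, but 2 did without control_7d and 4 with the upper limits lifted. Of 4 muscle genes tested 1 passed, *Des* (desmin, also of pericytes), which rose by 1.83 ± 0.24, and of 2 Schwann cell genes none passed. With the upper limits lifted 3 of 8 muscle genes rose and 1 fell. The part of these cells in the results below was not tested.

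Genes that maintain DNA methylation are partly made with the replication enzymes, and these are given with no test. *Dnmt1*, the maintenance methyltransferase, stood at 85.8, 83.6, 78.1 and 94.6 CPM against 22.6, 26.8, 24.0 and 21.97. *Uhrf1*, which brings it to newly copied DNA, stood at 65.1, 61.0, 68.6 and 73.2 CPM against 2.83 to 5.39. *Dnmt3a*, a de novo methyltransferase, stood at 30.0, 45.6, 43.0 and 67.5 CPM against 59.3, 73.2, 69.3 and 77.2 and fell by 0.63 ± 0.14 (adjusted p = 0.00866). *Dnmt3b*, the other de novo enzyme, was at 3.19 to 5.27 CPM against 4.42 to 5.11 CPM (-0.22 ± 0.29, adjusted p = 0.670). Of the other genes of the list *Tdg*, a thymine DNA glycosylase, rose by 0.77 ± 0.16. Of all 9 genes 1 fell, but 2 without RA_4d or with the upper limits lifted, where 14.5% of all genes tested fell in the main fit.

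CDK inhibitors hold back entry into the cycle, and some of them are themselves made in it. *Cdkn1c*, which encodes p57, stood at 41.5, 58.4, 25.5 and 58.7 CPM against 153, 356, 148 and 287 and fell by 2.35 ± 0.13 (adjusted p = 6.84e-06), and the groups did not overlap. *Cdkn2c* (p18), *Cdkn2d* (p19) and *Cdkn3*, a phosphatase of CDKs, vary over the cycle and are given with no test. *Cdkn2c* stood at 62.9, 85.1, 31.1 and 119 CPM against 17.3 to 22.9, *Cdkn2d* at 90.1, 94.9, 39.9 and 83.9 against 21.9 to 31.1 and *Cdkn3* at 103, 88.1, 69.3 and 95.2 against 1.66 to 4.00. Of the D-type cyclins, *Ccnd1* rose by 0.83 ± 0.11 and *Ccnd2* fell by 0.87 ± 0.11. Of 22 G1 cyclins, CDK inhibitors and pocket proteins, 8 fell (5 without control_4d) and 10 were higher, a count that holds the 3 inhibitors given with no test and is a description.

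Biosynthetic genes were more often higher than lower, where 17.3% of all genes tested were higher and 14.5% lower. Of 28 genes of ribosome biogenesis and nucleotide synthesis, 21 rose and none fell (median log2 fold 0.70). *Ncl*, which encodes nucleolin, stood at 630.1, 520.0, 609.8 and 498 CPM against 294, 356, 325 and 282 (rose by 0.82 ± 0.10), and *Mthfd2*, of mitochondrial one-carbon metabolism, rose by 1.19 ± 0.14. Of 18 glycolytic genes 8 rose, among them *Slc16a3*, a lactate exporter (1.38 ± 0.23), *Pgk1* (0.94 ± 0.10) and *Eno1* (0.89 ± 0.11), while *Hk2*, a hexokinase, was the 1 that fell, by 1.35 ± 0.17. Of 22 genes of cholesterol synthesis 9 rose and none fell, among them *Fdps* (0.80 ± 0.13) and *Srebf2* (0.54 ± 0.15), which did not pass without control_7d, RA_4d or RA_7d. Of the list 5 rose without control_7d, 4 without RA_4d and 4 without RA_7d. Of 20 genes of the p53 response and senescence 3 rose and 2 fell, neither above the share of all genes. These counts were 1 and 2 without RA_7d, 2 and 1 without RA_4d, and 3 and 1 without control_7d. Lifting the upper limits gave 5 of 21 that rose and 4 that fell, and with no filter on low counts 1 rose and 2 fell. *Phlda3*, a p53 target, rose by 0.47 ± 0.10.

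Genes of fibroblasts were lower in the cycling cells, where 14.5% of all genes tested were lower. Of 18 genes of *Cxcl14* and *Abca8a* fibroblasts 17 fell and none rose (median log2 fold -2.09). *C3*, complement component 3, stood at 27.9, 43.7, 98.0 and 162 CPM against 810.5, 186, 899.9 and 899 in the comparison cells and fell by 3.07 ± 0.37 (adjusted p = 0.000534). *Dpep1*, a dipeptidase, fell by 3.09 ± 0.22, *Mmp3* by 2.82 ± 0.26 and *Abca8a* by 2.75 ± 0.26. Of 14 genes of *Pi16* and *Dpp4* fibroblast precursors 11 fell and none rose (median -1.19). *Pi16*, a peptidase inhibitor, stood at 9.30, 23.3, 6.38 and 5.05 CPM against 168, 49.7, 66.7 and 217 (fell by 3.14 ± 0.57), *Clec3b* (tetranectin) fell by 3.38 ± 0.31 and *Ly6a* by 1.01 ± 0.17. *Thy1* was at 197, 116, 198 and 126 CPM against 139, 112, 116 and 129 (0.30 ± 0.14, adjusted p = 0.137), so that it did not pass.

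Of 10 tendon genes 5 fell and none rose, against 14.5% of all genes that fell. But 2 fell without control_4d, and 3 each without RA_4d, with comparison cells of like depth and with DESeq2. *Cilp*, a matrix protein, stood at 127, 119, 121 and 122 CPM against 391, 309, 529 and 419 and fell by 1.74 ± 0.14 (adjusted p = 4.41e-05). *Tnmd* (tenomodulin) and *Thbs4* (thrombospondin 4) fell by 1.38 ± 0.44 and 1.57 ± 0.38, but neither passed with DESeq2 or without control_4d. *Thbs4* also did not pass with the upper limits lifted, and *Tnmd* not with comparison cells of like depth or without control_7d or RA_4d.

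Of 15 genes of committed skeletal progenitors 6 rose and 2 fell, against 17.3% and 14.5% of all genes. With comparison cells of like depth or with the *Ptprc* and *Pecam1* limits set on them, 4 fell. *Fabp5*, a fatty acid carrier, stood at 463, 592, 337 and 158 CPM against 169, 219, 152 and 51.7 (rose by 1.39 ± 0.10, adjusted p = 3.12e-05), and *Enpp1*, which makes pyrophosphate, rose by 1.21 ± 0.25. *Postn* (periostin), a matrix protein of the periosteum, stood at 1509.9, 2389, 1543 and 1615 CPM against 2832, 4402, 2964 and 4084 and fell by 1.04 ± 0.09. *Tnn* was higher in 3 of 4 libraries (0.88 ± 0.28, adjusted p = 0.0437), and did not pass with comparison cells of like depth, with the upper limits lifted, or without control_4d, control_7d or RA_7d.

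Of 20 cartilage genes 8 rose and 1 fell, against 17.3% and 14.5% of all genes, and fewer rose under several alternatives. Without RA_7d 3 of 16 rose, and without control_7d 5 of 16. Lifting the upper limits gave 3 of 20 that rose and 2 that fell. *Matn3*, a cartilage matrix protein, stood at 3.58, 363, 8.77 and 289.5 CPM in the cycling and 4.47, 110.4, 5.56 and 41.1 CPM in the comparison cells (rose by 1.78 ± 0.36, adjusted p = 0.00658), and *Col9a3*, a chain of type IX collagen, at 2.15, 507, 0 and 580.3 CPM against 1.18, 207, 1.47 and 91.8 (rose by 1.77 ± 0.36). Their levels were far higher at 7 than at 4 dpf in both kinds of cell. *Col10a1*, of hypertrophic chondrocytes, was the 1 that fell, with 0.715, 11.7, 0 and 3.15 CPM against 0, 159, 0.128 and 47.0. With DESeq2 2 of the 20 rose and none fell, and *Matn3*, *Col9a3* and *Col10a1* did not pass. Of 14 osteogenic genes 2 rose and 1 fell, neither above the share of all genes. None rose with comparison cells of like depth or without RA_7d. Only 1 rose with doublets left out, with DESeq2 or with the *Ptprc* and *Pecam1* limits set on the comparison cells. Without RA_4d 1 rose and 2 fell. With the upper limits lifted 4 of 15 rose, and with no filter on low counts 4 of 18 rose and 3 fell. *Runx2*, the osteoblast transcription factor, stood at 117, 232, 281 and 249.8 CPM against 86.4, 223, 135 and 123 (rose by 0.62 ± 0.16), and did not pass with comparison cells of like depth or without RA_4d or RA_7d, while *Sparc* (osteonectin) fell by 0.49 ± 0.09.

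Of 36 genes of collagens and matrix assembly 9 rose and 11 fell, against 17.3% and 14.5% of all genes. *Col14a1*, a collagen of fibrous tissue, stood at 104, 146, 145 and 149 CPM against 593, 423, 509 and 801 (fell by 2.08 ± 0.17), and *Mmp2*, a gelatinase, fell by 1.57 ± 0.13. *Timp1*, an inhibitor of metalloproteinases, stood at 1359.7, 859, 1048 and 1045 CPM against 485, 558, 403 and 316 and rose by 1.28 ± 0.15, while *Timp2* fell by 1.23 ± 0.17. The paralogs thus moved in opposite directions.

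Growth factors and their receptors were more often lower than higher, where 14.5% of all genes tested were lower and 17.3% higher. Of 32 ligands and antagonists 17 fell and 3 rose (11 and 1 without control_4d, 15 and 5 without control_7d, 15 and 1 without RA_4d). *Igf1*, insulin-like growth factor 1, stood at 126, 216, 124 and 150.1 CPM against 588, 663, 558 and 825 and fell by 2.13 ± 0.15 (adjusted p = 2.23e-05), and its binding proteins *Igfbp4* and *Igfbp5* fell by 1.44 ± 0.11 and 1.90 ± 0.21. The groups did not overlap for *Igf1*. Of 26 receptors 13 fell, among them the TGF-beta receptors *Tgfbr3* (by 1.19 ± 0.10) and *Tgfbr2* (by 0.98 ± 0.10) and *Egfr* (by 0.98 ± 0.10), and 1 rose, *Fgfr3* (1.36 ± 0.36), of growing cartilage. *Fgfr3* did not pass with DESeq2 or without RA_7d, and 8 of the receptors fell without control_4d and 8 without control_7d.

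Inflammatory and immediate early genes were also more often lower, where 14.5% of all genes tested were lower and 17.3% higher. Of 37 NF-kB and inflammatory genes 15 fell and 1 rose, but none rose without control_4d, control_7d or RA_7d, and 10 fell without control_4d. With the upper limits lifted 14 fell and 4 rose (median log2 fold -0.10, against -0.43). *Cxcl12*, a chemokine of stromal niches, stood at 174, 199.6, 426 and 175 CPM against 441, 298, 1038 and 490.3 and fell by 1.19 ± 0.15, and *Il6st*, the shared receptor of IL-6 cytokines, fell by 0.70 ± 0.10. *Cxcl1* fell by 0.70 ± 0.12, which was not seen with the upper limits lifted (0.07). *Ikbkb*, a kinase upstream of NF-kB, was at 20.03, 18.5, 22.3 and 13.2 CPM against 21.0, 20.7, 23.2 and 20.4 (-0.24 ± 0.16, adjusted p = 0.281). Of 22 immediate early and dissociation stress genes 18 fell, among them *Klf4* (by 1.48 ± 0.16), *Dusp1* (by 1.39 ± 0.12) and *Egr1* (by 1.25 ± 0.10), and 1 rose, *Hspa8* (0.46 ± 0.07), a chaperone. Of 27 transcription factors of limb mesenchyme 10 fell, among them *Osr2* (by 1.13 ± 0.15), and none rose (median -0.35). Without control_4d 5 fell, and with the upper limits lifted 12 of 28 fell and 4 rose (median -0.15).

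Genes of the Notch pathway were measured because the study follows it in these progenitors. *Rbpj*, its nuclear effector, stood at 120.2, 120.1, 102 and 122 CPM against 127, 109, 115 and 117 (-0.03 ± 0.10, adjusted p = 0.851), and the groups overlapped. The target *Hes1* stood at 144, 154, 256 and 163 CPM against 263, 256, 337 and 286 and fell by 0.73 ± 0.10, and the co-activators *Maml2* and *Maml3* fell by 0.56 ± 0.13 and 0.70 ± 0.15. The receptor *Notch1* stood at 29.3, 45.9, 110 and 46.7 CPM against 22.3, 42.1, 36.6 and 27.5 (rose by 0.71 ± 0.22, adjusted p = 0.0358), with the largest gap in RA_4d, and did not pass with comparison cells of like depth or without control_4d, RA_4d or RA_7d. Of 24 genes tested 2 rose and 5 fell, against 17.3% and 14.5% of all genes, and these counts are not read as a trait of the pathway. None rose without control_4d or RA_4d, 1 rose without RA_7d, and with the upper limits lifted 1 of 27 rose and 8 fell.

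**Figure D4:**
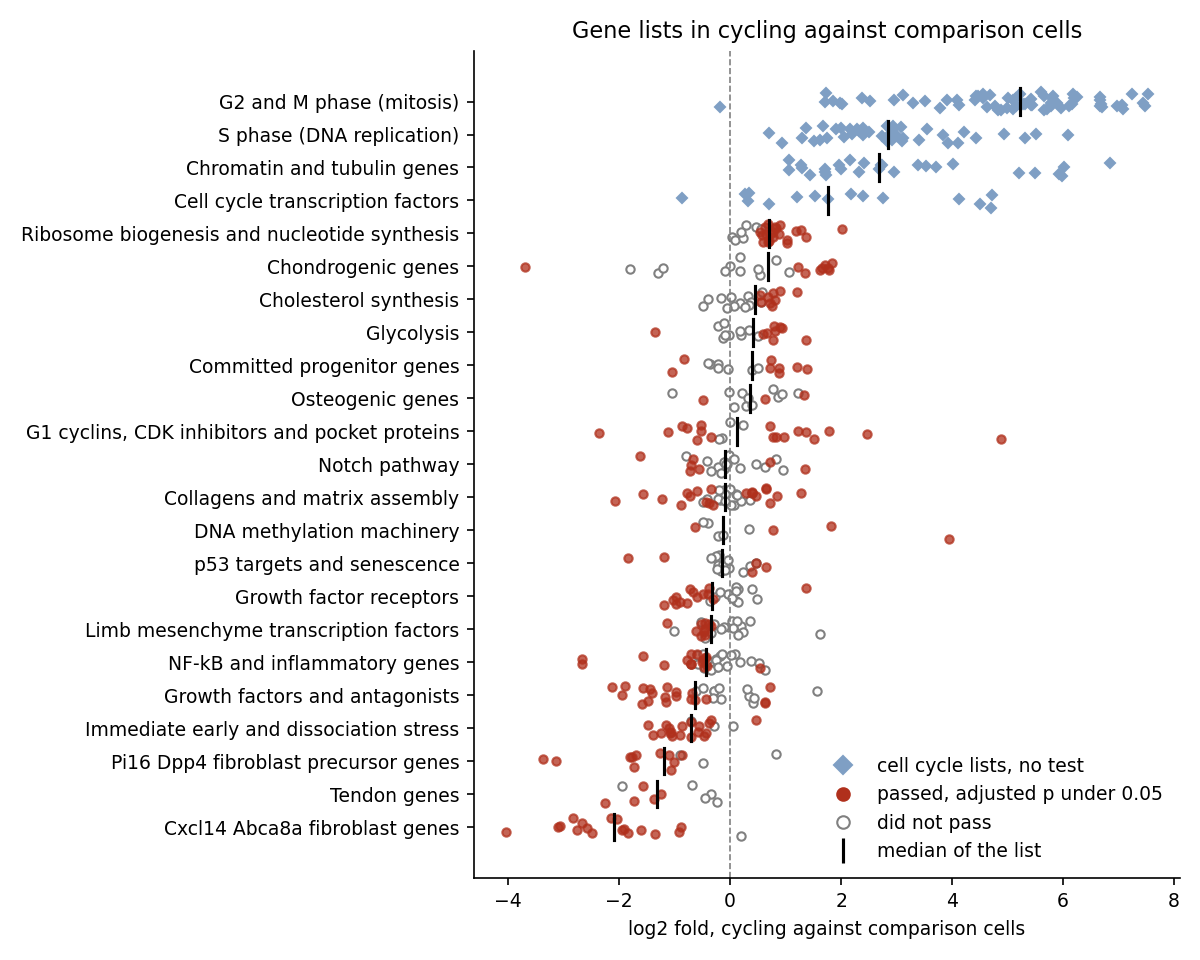
Log2 folds of cycling against comparison cells (x axis) for the members of 23 gene lists (y axis), ordered by their median (black line), where red points passed edgeR's test, open points did not, and blue diamonds are the cell cycle lists, given with no test. The fibroblast and tendon lists lie lowest (medians of -2.09, -1.31 and -1.19), and ribosome biogenesis has the highest median (0.70) of the tested lists drawn. The points of *Dnmt1*, *Uhrf1*, *Cdkn2c*, *Cdkn2d* and *Cdkn3*, on which the rule bears, are drawn like those of the other members. Lists of other cell types are not drawn, and their medians reach from -1.49 (haematopoietic genes) to 0.94 (mural genes), but the first was 0.07 with the *Ptprc* and *Pecam1* limits set on the comparison cells and the second -0.31 with the upper limits lifted.

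Outside the cell cycle lists, the largest rises included genes that are known from division. *Pbk*, a mitotic kinase, stood at 80.8, 104, 43.0 and 126 CPM against 0.176 to 0.612, *Pclaf*, a partner of PCNA, at 265, 309.5, 227 and 328 against 0.656 to 3.96, and *Mxd3*, a partner of MAX, at 58.6, 68.9, 35.1 and 54.2 against 0.211 to 0.830. Since these genes are known from division, the rule bears on them, and their levels are a description. Among the largest falls, *Angptl7*, a secreted factor, had no UMI of 6893542 in the cycling cells and 4685 UMIs in the comparison cells, at least 59.3-fold lower by a floor of 3 UMIs over the group. This bound was 31.4-fold without RA_4d and 36.5-fold without control_4d, the libraries with the highest levels. *Slfn5* fell by 4.09 ± 0.34, *Ace* (angiotensin-converting enzyme) by 3.90 ± 0.28 and *C4b* (complement component 4) by 3.39 ± 0.16. Of the mural genes 2 of 10 rose (17.3% of all genes did), *Cspg4* (NG2) by 1.48 ± 0.24 and *Acta2* by 1.11 ± 0.21. With comparison cells of like depth 5 rose, without RA_7d 6, without control_4d 2 rose and 1 fell, and with the upper limits lifted 3 rose and 2 fell.

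Between RA and control few genes of the cycling cells were past 2-fold, and these values have no replicate. Genes were compared by the log2 ratio of CPM with 1 CPM added where both libraries together held at least 50 UMIs, which understates the change of low genes. At 4 dpf 283 of 6854 genes were past 2-fold higher in RA (4.13%) and 159 lower (2.32%), and at 7 dpf 141 of 8413 were higher (1.68%) and 90 lower (1.07%). Lifting the upper limits gave 153 higher and 163 lower genes at 4 dpf, so that the balance turned, and 237 and 118 at 7 dpf. In the comparison cells 0.695% of 13384 genes were higher and 0.792% lower at 4 dpf, and 1.41% of 16742 were higher and 1.11% lower at 7 dpf. The comparison cells had many more UMIs, so that the shares of both kinds of cell are not read against each other. Of 6775 genes compared at both times in the cycling cells, 10 were past 2-fold higher at both, 10 lower at both and 18 in opposite directions.

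Lists of skeletal and fibroblast genes were also compared between RA and control at 7 dpf in both kinds of cell. Fewer genes had the 50 UMIs in the cycling cells, so that the counts rest on unequal sets of genes. The counts are given for each kind of cell and not read against each other, while medians are given over the same genes. Of 17 cartilage genes in the cycling cells none was past 2-fold (median log2 ratio -0.15), and of 20 in the comparison cells 14 were lower in RA, with a median of -1.24 over the same 17. *Acan* was at 739 CPM in RA_7d and 863 CPM in control_7d in the cycling cells, and at 107 and 405 CPM in the comparison cells. Of 15 genes of committed progenitors 1 was lower in the cycling cells (median -0.51) and 7 in the comparison cells (median -0.96 over the same 15). Genes of *Cxcl14* and *Abca8a* fibroblasts had a median of 0.74 in the cycling cells (4 of 11 higher) and of 1.00 over the same 11 in the comparison cells, and those of *Pi16* and *Dpp4* fibroblasts 0.29 and 1.30, also over 11. The tendon list had a median of 0.53 over 10 genes in the cycling cells (3 higher) and of 0.16 in the comparison cells (none higher). The median over all genes was 0.03 in the cycling and -0.03 in the comparison cells. Whether the kinds of cell differ in this was not tested.

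At 4 dpf *Pi16* and *Dpp4* fibroblast genes were lower in RA in both kinds of cell, with medians over the same 8 genes of -1.28 in the cycling and -1.22 in the comparison cells. *Notch1* was at 110.0 CPM in RA_4d and 29.3 CPM in control_4d in the cycling cells, a ratio of 3.75 (2.63 to 5.45), while at 7 dpf the ratio was 1.02 (0.751 to 1.37). For *Runx2* the ratios were 2.40 (1.99 to 2.90) at 4 dpf and 1.08 (0.947 to 1.22) at 7 dpf. The comparison cells of RA_4d and control_4d had 36.6 and 22.3 CPM of *Notch1* and 135 and 86.4 CPM of *Runx2*. Those of RA_7d and control_7d had 27.5 and 42.1 CPM of *Notch1* and 123 and 223 CPM of *Runx2*. In the cycling cells *Rbpj* had a ratio of 0.849 (0.669 to 1.08) at 4 dpf and 1.02 (0.848 to 1.22) at 7 dpf, neither of which differed from 1 beyond counting error. For *Dnmt3b* the ratios were 0.892 (0.177 to 4.14) and 0.718 (0.226 to 1.99), with too few UMIs to show a difference.

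Genes with the same direction at both times were named by the size of their ratio at 7 dpf. Lower in RA were the contractile genes *Acta2*, at 849.7 CPM in RA_4d against 1693 in control_4d and 153 in RA_7d against 574 in control_7d, and *Tagln* (transgelin), with log2 ratios of -2.28 at 4 dpf and -2.28 at 7 dpf. The log2 ratio of *Acta2* was -0.99 at 4 dpf and -1.90 at 7 dpf, and -0.31 and -1.77 in the comparison cells. Lifting the upper limits gave -0.05 and -1.80 in the cycling cells. *Fabp5* was at 158 CPM in RA_7d against 592 in control_7d, a ratio of 0.268 (0.233 to 0.306). *Id3*, an inhibitor of differentiation, was at 122 against 384 CPM, a ratio of 0.317 (0.270 to 0.370), and *Tnn* at 237 against 455 CPM, a ratio of 0.522 (0.464 to 0.586). For *Fabp5* and *Id3* the direction at 4 dpf turned with the upper limits lifted (0.04 and 0.05). *Csrp2* and *Higd1a* had log2 ratios of -1.03 and -0.97 at 7 dpf. The globins *Hbb-bs*, *Hba-a1* and *Hba-a2* of red blood cells were lower as well, and 1 cell held 91.8% of the *Hbb-bs* UMIs in control_4d and 1 cell 77.1% in control_7d. *Hba-a1* had no UMI in RA_4d against 131 in control_4d, at least 39.2-fold lower by a floor of 3 UMIs.

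Higher in RA at both times were *Spp1* (osteopontin), at 1469.9 CPM against 247 at 4 dpf and 1101 against 327 at 7 dpf, *Hp* (haptoglobin), *C3* and *Cfb* (complement factor B). The log2 ratios at 7 dpf were 1.75 for *Spp1*, 2.63 for *Hp*, 1.87 for *C3* and 1.40 for *Cfb*. A single cell of RA_7d held 43.4% of the *Spp1*, 64.4% of the *Hp*, 45.1% of the *C3* and 23.3% of the *Cfb* UMIs. *Ghr*, the growth hormone receptor, was at 204 CPM in RA_7d against 72.7 in control_7d, a ratio of 2.81 (2.35 to 3.38), with UMIs in 38 of 48 cells. *Timp3*, an inhibitor of metalloproteinases, was at 254 against 96.4 CPM, a ratio of 2.63 (2.24 to 3.09), with UMIs in 38 of 48 cells. *Lama2*, a laminin chain, *Abhd2*, *Srgap1* and *Pard3b* had log2 ratios of 1.72, 1.28, 1.16 and 1.13. Once the upper limits were lifted, *Spp1* and *Timp3* turned their direction at 4 dpf (-0.36 and -0.08) and had log2 ratios of 1.35 and 1.31 at 7 dpf.

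**Figure D5:**
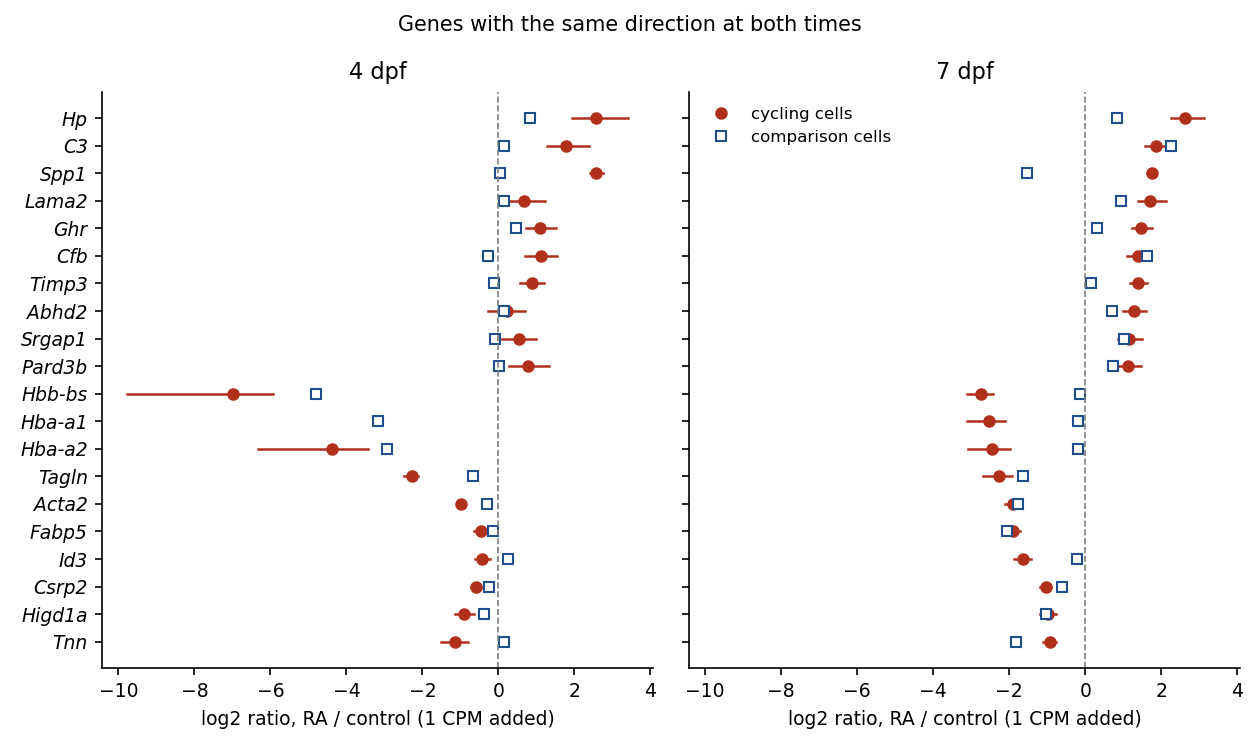
Log2 ratio of RA to control with 1 CPM added (x axis) at 4 dpf (left) and 7 dpf (right) for the 20 genes with the largest ratios at 7 dpf whose direction was shared by both times (y axis), in cycling cells (red circles, with 95% intervals from UMI counts) and comparison cells (open blue squares). At 7 dpf *Acta2* and *Fabp5* lie close together in both kinds of cell, whereas *Spp1* is higher in RA in the cycling cells (1.75) and lower in the comparison cells (-1.54). *Hba-a1*, with no UMI in RA_4d, has no circle at 4 dpf.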

How the data were processed

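Single cells of 4 callus libraries were profiled with 10x 3′ v3.1 chemistry. The authors deposited raw UMI counts per gene and barcode, made with Cell Ranger 7.0.1 on mm10 per the submitters' processing notes. Library totals were 168210361 (control_4d), 177131833 (control_7d), 130168130 (RA_4d) and 182259646 UMIs (RA_7d). Cells were kept by the study's limits on UMIs, genes and mitochondrial UMIs. Members and gene lists were chosen with earlier results of these data known. Counts were summed per library and kind of cell and tested with edgeR 4.0.16 (quasi-likelihood, library as block, filterByExpr) in R 4.3.3, with DESeq2 1.42.0 as an alternative, and the test was tried on simulated data. Doublets were called with Scrublet in scanpy 1.11.5 and kept, except in an alternative. Named were the genes of the rule and the study, up to 4 passed members a list of at least 50 CPM with the largest folds, the 10 largest rises and falls outside the cell cycle lists, and the 10 largest each way between RA and control at 7 dpf of at least 100 CPM and the same direction at 4 dpf. *Ccnd1*, *Ccnd2*, *Fgfr3*, *Hspa8*, *Tdg* and single markers of other cells were added after their values were seen. Gene positions are from GENCODE M21. Alternatives were another cell filter, UMI threshold, thinning, denominator, tool, count filter, comparison set, pseudocount and scaling, and leaving out each library.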

Additional observations from a re-analysis of the deposited data

Results flagged for a closer look

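The share of cycling cells among gate cells had a ratio of RA to control of 1.29 at 4 dpf and 0.443 at 7 dpf, on opposite sides of 1. The difference between the times was not tested, since each condition has 1 library, and with the upper limits on a cell lifted the ratio at 4 dpf was below 1.

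The S phase list had a ratio of RA to control of 0.784 in the cycling cells at 4 dpf and 1.26 at 7 dpf, and the G2 and M phase list 0.750 at 4 dpf and 1.07 at 7 dpf. These are ratios of sums, and by the median over cells the G2 and M phase list was lower in RA at both times (0.434% against 0.665% at 4 dpf, 0.658% against 0.767% at 7 dpf). These differences between the times were not tested.

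Between RA and control 18 genes of the cycling cells were past 2-fold in opposite directions at 4 and 7 dpf, which was not tested either.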

How the results depend on the processing

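The ratio of RA to control in the share of cycling cells at 7 dpf was below 1 under all 9 alternatives tried, from 0.417 to 0.546. At 4 dpf it ran from 0.961 to 1.40. The ratio of 7 to 4 dpf in control was 0.373 with a looser cell filter, 0.371 with the upper limits lifted, with or without doublets, and 1.58 with all kept cells as the denominator, for which that in RA was 0.648. With the upper limits lifted, 3875 genes were higher and 3647 lower in the cycling cells, and *Cxcl1* had a log2 fold of 0.074. Leaving out 1 library gave 1705 to 1945 higher and 1428 to 1721 lower genes. Genes past 2-fold between RA and control depended on the settings. With 10 CPM added, 155 were higher and 93 lower at 4 dpf, and 62 and 37 at 7 dpf. With at least 20 UMIs, the counts were 515 and 332 at 4 dpf, and 326 and 246 at 7 dpf. With the upper limits lifted, 153 were higher and 163 lower at 4 dpf, and 237 and 118 at 7 dpf. Log2 ratios of RA to control that changed sign with the upper limits lifted were those of *Spp1* (-0.36), *Timp3* (-0.081), *Fabp5* (0.043), *Id3* (0.053) and *Top2a* (0.19) at 4 dpf and *Col1a1* (0.12) at 7 dpf. With at least 1 UMI of *Mki67* and *Top2a*, those of *Timp3* (-0.14) and *Col1a1* (-0.033) did so at 4 dpf. The phase ratios with at least 1 UMI were 0.868 (S phase) and 0.795 (G2 and M phase) at 4 dpf and 1.21 (S phase) at 7 dpf. Lifting the upper limits gave 0.982 and 0.930 at 4 dpf and 1.13 and 1.11 at 7 dpf. The cause of these changes was not tested. The fit between kinds of cell pairs both kinds within a library. Of 111 named genes that passed, 105 also passed with DESeq2.

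Each library holds 37 to 82 cycling cells of 1 pool of mice, so that no statement on RA reaches beyond these libraries. The upper limits on a cell removed 465 of 669 cycling cells, and the values describe those that remained. Low genes rest on few UMIs, and some levels on 1 cell.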
